A study of Homo sapiens with 4 samples.

Results

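Immediate early genes were measured in 4 populations of H1299 cells, with 1 array for each population. The set has 10 genes: FOS, FOSB, JUN, JUNB, EGR1, DUSP1, ATF3, IER2, IER3 and MYC. Of these, 9 have a probe under that symbol in the platform annotation, out of 15240 gene symbols on the array. IER3 has none there. The 9 genes have 10 probes, because IER2 has 2. The set was chosen from its measured values on these same arrays, where such genes stood lower in the Oct4 reporter cells than in the Nestin reporter cells, so the differences between reporters are given below as a description and not as a test. H1299 is an established human non-small cell lung cancer line. The cells were stably transfected with a vector in which a promoter of Oct4 or of nestin drives green fluorescent protein (GFP). The populations are called Oct4/GFP (+) and Nestin/GFP (+), with Oct4/GFP (−) and Nestin/GFP (−) as their counterparts without GFP, and values written without names below follow this order. All were kept in serum-containing culture medium for 24 h before RNA was isolated. The GFP (+) cells had been sorted by FACS for high GFP. The labels call the GFP (−) cells negative for the reporter, while the study's methods describe sorting transfected lines for cells without GFP, so the sources do not settle whether the GFP (−) cells still carried the vector. GFP reports the activity of the transfected promoter and not the endogenous gene. Since each population has a single array, differences between arrays carry no replicate check and no p-value.

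Immediate early genes are transcribed within minutes of a stimulus such as serum, a growth factor or stress, without new protein synthesis, and most of their mRNAs decay quickly. Signals through the MAP kinases ERK, JNK and p38 reach factors already bound at their promoters, such as serum response factor with its ELK partners at the CArG box and CREB or ATF proteins at the cyclic AMP response element. FOS and JUN family proteins pair to form AP-1, a transcription factor, while DUSP1 is a phosphatase that switches MAP kinases off again. In serum-fed cancer cells some of these genes are kept on by growth factor signaling.

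The promoters of 4 members on which the results turn are printed here to show the strings known from such response elements. FOSB and JUN are the members past 2-fold higher in GFP (+) cells of both lines, DUSP1 is the member with the widest spread between arrays, and EGR1 was above background on 1 array only. Each line is the 150 bases before the annotated start in RefSeq (GRCh38.p14), read 5′ to 3′ on the strand of the gene. Capitals mark matches, on either strand, to TGACG (the core of the cyclic AMP response element, also seen as CGTCA), TGACATCA (a site for JUN and ATF2 dimers known from the JUN promoter), the CArG box or TATAAA. FOSB lies at chr19:45467846-45467995 on the plus strand, JUN at chr1:58784048-58784197 on the minus strand, DUSP1 at chr5:172771196-172771345 on the minus strand and EGR1 at chr5:138465329-138465478 on the plus strand.
FOSB: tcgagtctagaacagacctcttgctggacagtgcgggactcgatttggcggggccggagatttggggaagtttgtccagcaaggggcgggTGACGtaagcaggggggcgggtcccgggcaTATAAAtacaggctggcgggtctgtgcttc
JUN: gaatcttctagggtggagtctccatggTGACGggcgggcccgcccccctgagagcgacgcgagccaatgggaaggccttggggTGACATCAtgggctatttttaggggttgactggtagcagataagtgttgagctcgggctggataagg
DUSP1: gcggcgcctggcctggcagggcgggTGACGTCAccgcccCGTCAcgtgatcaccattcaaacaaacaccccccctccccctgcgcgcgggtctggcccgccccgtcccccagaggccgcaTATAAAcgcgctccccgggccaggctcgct
EGR1: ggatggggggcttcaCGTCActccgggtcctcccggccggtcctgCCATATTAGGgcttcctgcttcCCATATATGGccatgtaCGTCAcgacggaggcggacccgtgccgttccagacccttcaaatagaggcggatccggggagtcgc

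In all, 8 members could be matched in the promoter table, at 9 annotated starts because ATF3 has 2. The 250 bases before each start were searched on both strands. TGACG was found before FOS, FOSB, JUN, JUNB, EGR1, DUSP1 and IER2, and it is a common string that 21.2% of the 35116 promoters outside chromosome 8 hold in the same window. The full palindrome TGACGTCA, which contains TGACG on both strands, was found before DUSP1 only among the members, 125 bases before its start, and in 1.65% of all promoters. DUSP1 had a further TGACG match 111 bases before the start and another at 172 bases, outside the stretch printed. Within these 250 bases the CArG box was found before EGR1 only, at 105 and 83 bases, and in 1.16% of all promoters. Bases farther upstream were not searched for any member, so sites there would be missed. TGACATCA was found before JUN at 67 bases and before a start of ATF3 at 123 bases, and in 2.37% of all promoters. TATAAA lay 30 bases before the start of FOSB and of DUSP1, 33 bases before FOS, 31 bases before JUNB and 230 bases before the second start of ATF3, and it is in 10.7% of all promoters. TGANTCA, the AP-1 site itself, was found before no member and in 6.57% of all promoters. A match is a string of letters and not a measured binding site.

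The files hold linear, background-subtracted intensities in whole numbers, and how the arrays were scaled before deposit is not stated in the sources used here. Most probes were dim, with array medians of 4 to 9, and the limit for a probe above background was 3 times the noise SD of its array, an intensity of 13.9 to 22.7. By that limit 19.5% to 29.1% of the 30968 probes were above background on an array, and 12749 were on at least 1. The Oct4/GFP (−) array was the dimmest. On the Oct4/GFP (+) array 120 of the 12749 probes were over 8-fold below the mean of the other 3 arrays, against 3 or 4 on each of the others, and 0 of the 7 member probes above background were apart by that much on any array. Arrays were quantile normalized, and both scales are given for each member below. The mesenchymal genes VIM and CDH2 were above background on every array, while FN1, also mesenchymal, was on none (-3, 9, 0 and 4). The epithelial genes CDH1 and KRT19 and the blood genes PTPRC and CD3E were on none either, and KRT8, KRT18 and EPCAM have no named probe. The fibroblast genes COL1A1 (26) and DCN (23) were dimly above the limit in Nestin/GFP (+) cells. COL1A1 (14) and a probe of the endothelial gene PECAM1 (19) were so in Oct4/GFP (−) cells. NES, the gene of nestin itself, was at 5 and -4 in the GFP (+) cells of the Oct4 and Nestin lines and at 2 and 20 in their GFP (−) cells, all under the limit of the array, and no probe is named for POU5F1, the gene of Oct4.

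Of the 10 member probes, 7 were above background on at least 1 array and 4, those of FOSB, JUN, DUSP1 and IER2, on all 4. JUN, the AP-1 subunit that can pair with itself, was the brightest member on every array. Its deposited intensity was 969 in Oct4/GFP (+), 3247 in Nestin/GFP (+), 132 in Oct4/GFP (−) and 685 in Nestin/GFP (−) cells. After normalization these became 1292, 2008, 423 and 550 in the same order, so that both GFP (+) arrays stood above both GFP (−) arrays. In bulk RNA, fewer cells with a transcript and less of it per cell cannot be told apart.

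FOSB, a FOS family partner of JUN, had deposited intensities of 181 in Oct4/GFP (+), 895 in Nestin/GFP (+), 27 in Oct4/GFP (−) and 142 in Nestin/GFP (−) cells. The normalized values were 265, 509, 72.5 and 113 in the same order. FOSB thus followed the same order of arrays as JUN, with GFP (+) above GFP (−) and, within each, Oct4 below Nestin. After centring each on its mean over the 4 arrays, the profiles of FOSB and JUN differed by a root mean square of 0.20 on the log2 scale. In the deposited intensities, where a single scaling factor per array cancels, the ratio of FOSB to JUN was -2.42, -1.86, -2.29 and -2.27 on the log2 scale, in the same order.

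FOS, the founding partner of JUN in AP-1, was far dimmer. Its deposited intensity was 21 in Oct4/GFP (+), 111 in Nestin/GFP (+), 1 in Oct4/GFP (−) and 30 in Nestin/GFP (−) cells, the third of these under the limit. The normalized values above background were 23.5 in Oct4/GFP (+), 71 in Nestin/GFP (+) and 23.3 in Nestin/GFP (−) cells. FOS therefore stood out on the Nestin/GFP (+) array and lay close to the limit on the others. JUNB, a JUN relative that often opposes JUN at AP-1 sites, was above background on no array, with intensities of 10, -15, 4 and -7 in the same order.

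EGR1, a zinc finger transcription factor induced through serum response factor, had deposited intensities of 12 in Oct4/GFP (+), 80 in Nestin/GFP (+), 8 in Oct4/GFP (−) and 17 in Nestin/GFP (−) cells. Only the Nestin/GFP (+) value exceeded the limit, at a normalized 52.3. ATF3, a stress-induced member of the ATF/CREB family that can repress its own gene, had 82 in Oct4/GFP (+), 154 in Nestin/GFP (+), 11 in Oct4/GFP (−) and 85 in Nestin/GFP (−) cells. Its normalized values were 119 in Oct4/GFP (+), 94.3 in Nestin/GFP (+) and 64.5 in Nestin/GFP (−) cells, and the Oct4/GFP (−) value was under the limit. MYC, which drives growth genes together with MAX, was above background on no array, with intensities of -1, -4, 2 and -6 in the order of the 4 populations.

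DUSP1 showed a different order. Its deposited intensity was 26 in Oct4/GFP (+), 635 in Nestin/GFP (+), 17 in Oct4/GFP (−) and 272 in Nestin/GFP (−) cells, and the normalized values were 31, 367, 42.5 and 214 in the same order. Both Nestin arrays were high and both Oct4 arrays were near the limit, whichever GFP state the cells had. IER2, a nuclear protein whose function is less well known, had 154 in Oct4/GFP (+), 584 in Nestin/GFP (+), 98 in Oct4/GFP (−) and 242 in Nestin/GFP (−) cells. Normalized, it varied least of the 4 probes measured on all arrays, at 229, 338, 313 and 193 in the same order. The second IER2 probe was above background on no array, with intensities of 10, 0, -2 and 4, so the 2 probes of this gene do not match in brightness and IER2 rests on the brighter one.

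**Figure D1:**
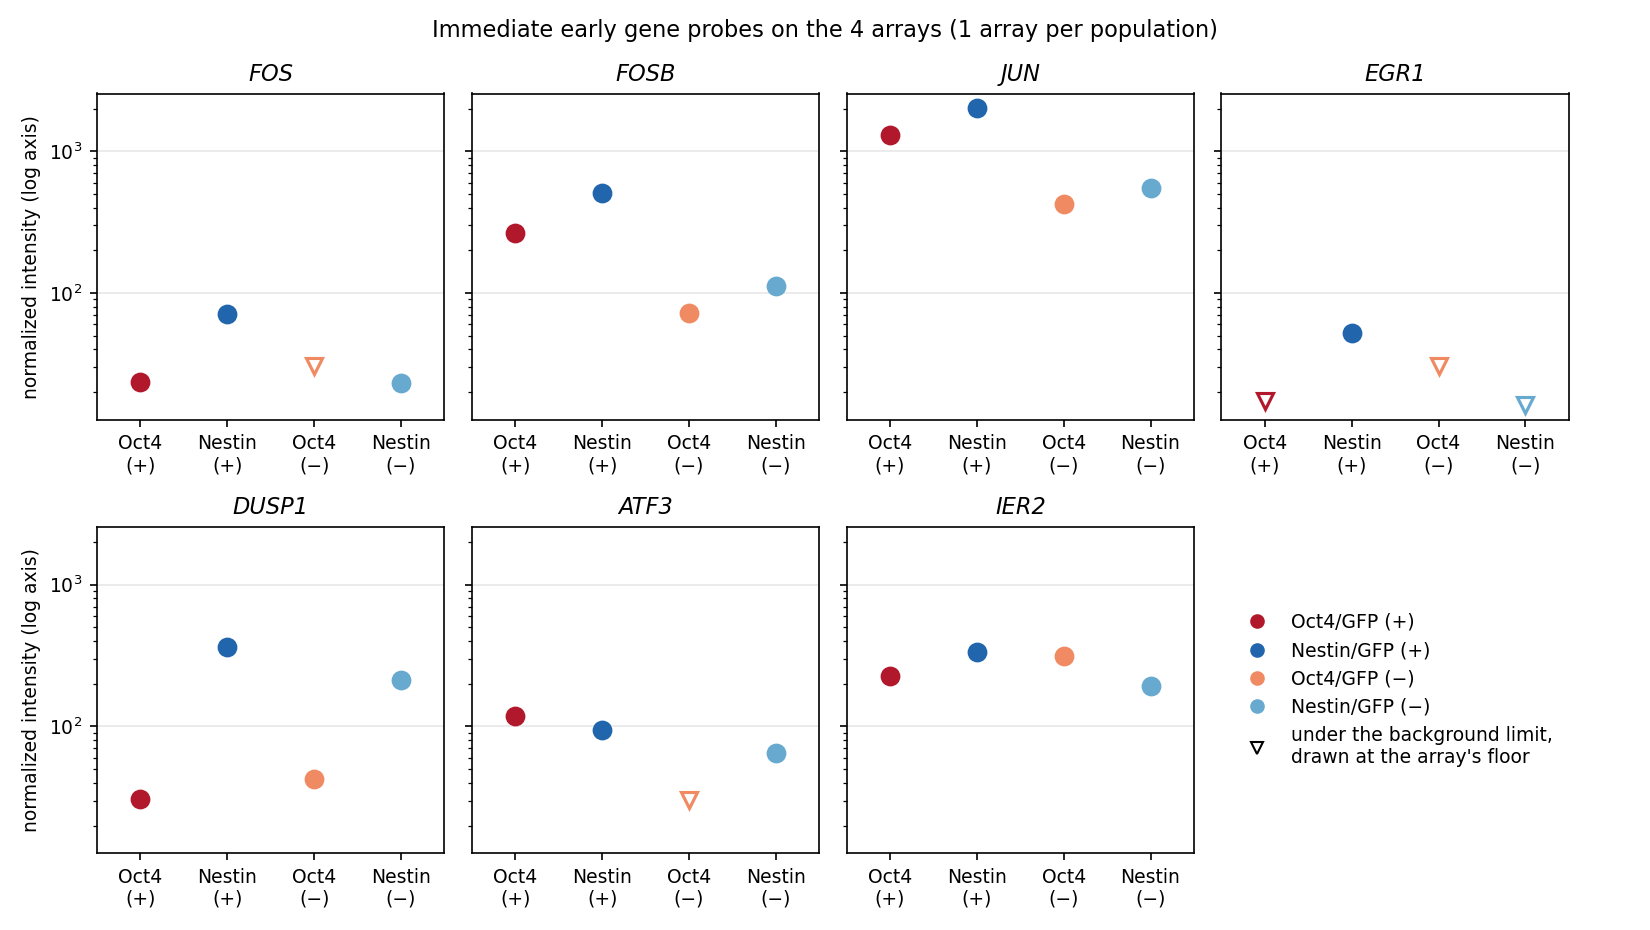
Normalized intensity (log axis) of the 7 immediate early gene probes above background on at least 1 array, with 1 point per population and open triangles at the floor of the array for values under the background limit. JUN and FOSB have both GFP (+) points above both GFP (−) points, DUSP1 has both Nestin points (367 and 214) above both Oct4 points (31 and 42.5), and EGR1 is above the limit in Nestin/GFP (+) cells only.

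The first comparison set GFP (+) against GFP (−) cells of the same line, and in both lines the AP-1 genes FOSB and JUN were higher in GFP (+) cells. A difference is measured where a probe was above background on both arrays. Where 1 array was under the limit, its value was raised to a floor, that array's dimmest normalized intensity still above background, and the fold is a bound. In the Oct4 line FOSB was 3.66-fold higher in GFP (+) cells (log2 difference 1.87) and JUN was 3.06-fold higher (1.61). ATF3 was at least 3.89-fold higher. DUSP1 and IER2 had log2 differences of -0.46 and -0.45, and no fold is given for EGR1, under the limit on both arrays, or for FOS, whose bound was under 1. Of the 6 member probes above background on either Oct4 array, 3 were past 2-fold higher and 0 lower. ATF3 entered this count only through the array where it was high, and with measured differences alone it is 2 of 4. Among all 9996 probes above background on either array, 8.39% were past 2-fold higher and 16% lower.

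In the Nestin line FOSB was 4.52-fold higher in GFP (+) than in GFP (−) cells (log2 difference 2.18), JUN 3.65-fold (1.87) and FOS 3.05-fold (1.61). EGR1 was at least 3.22-fold higher. IER2 was 1.75-fold higher, DUSP1 1.71-fold and ATF3 1.46-fold, all under 2-fold. Of the 7 member probes above background on either array 4 were past 2-fold higher and 0 lower, against 6.55% of 10339 probes past 2-fold higher and 5.75% lower. EGR1 entered this count only through the array where it was high, and with measured differences alone it is 3 of 6. The Nestin/GFP (+) array is also part of the contrast that chose the members. The count and the median that follows are therefore a description and not a test. The median of the 6 measured member differences was 1.21, beside 0.02 over all 6822 probes measured. In the Oct4 line the median of the 4 measured was 0.58, beside -0.02. The Oct4/GFP (−) array was the one with the fewest probes above background, which limits the Oct4 line, and the Nestin pair was the more alike of the pairs, with an SD of 0.63 over all measured log2 differences against 0.90 for the Oct4 pair.

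The comparisons of the 2 lines share no array, so they can be set side by side. Of the 3980 probes measured on all 4 arrays, 15 (0.377%) were past 2-fold higher in GFP (+) cells of both lines, and FOSB and JUN are among them. Ordered by the smaller of their 2 differences, FOSB was at rank 1 and JUN at rank 2, ahead of the calcium channel gene ORAI1 (1.40) and of RHOC, a small GTPase (1.36). This ranking was made after the values had been seen. With other ways of scaling the arrays both remained within ranks 1 and 2. With the limit lowered to 2 noise SD JUN was at rank 5 of 5144, and with a limit of 10 noise SD FOSB was no longer measured in Oct4/GFP (−) cells. Another 22 probes (0.553%) were past 2-fold lower in both lines, 0 of them members.

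**Figure D2:**
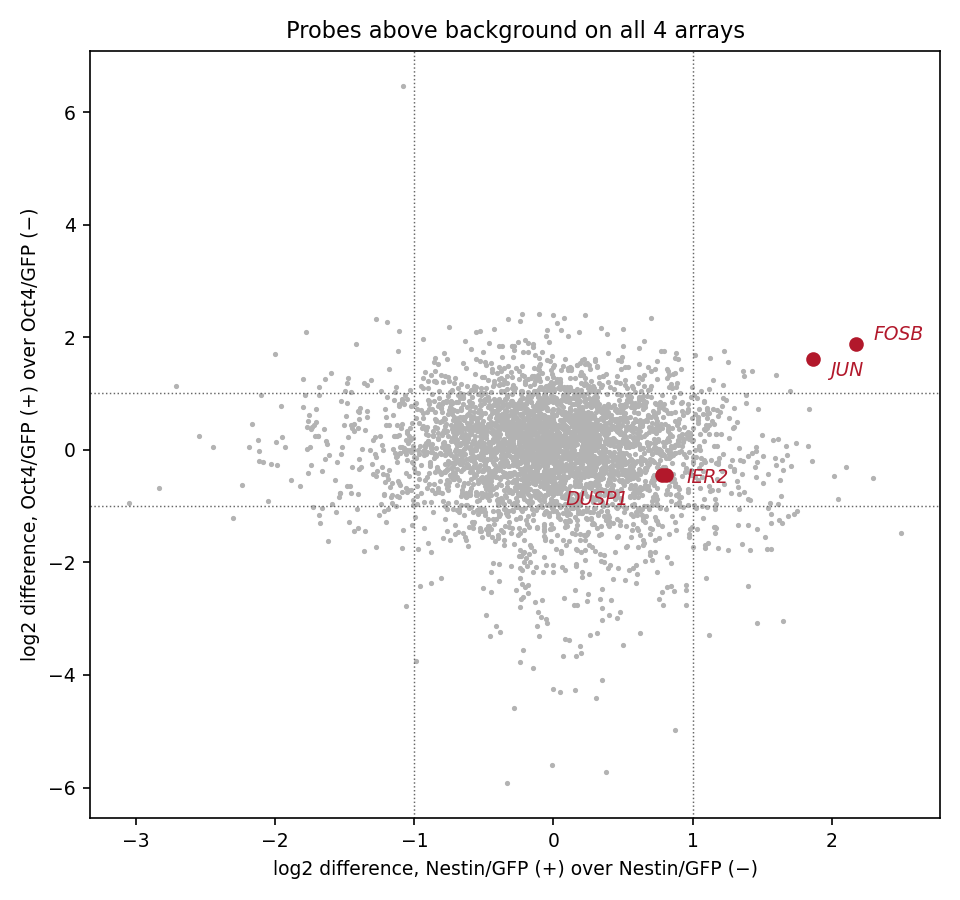
Each point is 1 of the 3980 probes above background on all 4 arrays, with the log2 difference of GFP (+) over GFP (−) cells in the Nestin line on the horizontal axis and in the Oct4 line on the vertical axis, and dotted lines at 2-fold. FOSB (2.18 and 1.87) and JUN (1.87 and 1.61) lie farthest towards the upper right, while DUSP1 and IER2 are above 0 in the Nestin line and below 0 in the Oct4 line.

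An additive fit over the 4 arrays, on reporter and on GFP state, gives each difference an error from 1 residual degree of freedom per probe moderated over 3980 probes in limma. For GFP state, FOSB differed by 2.02 ± 0.45 (SE) on the log2 scale and JUN by 1.74 ± 0.45, both higher in GFP (+) cells. The unadjusted limma p-values were 0.00165 for FOSB and 0.00404 for JUN, and the Benjamini-Hochberg adjusted p was 1 for both. No probe had an adjusted p under 0.05 for GFP state (0 of 3980, 0%), and 130 (3.27%) had an unadjusted p under 0.05. DUSP1 and IER2 differed by 0.16 ± 0.49 and 0.18 ± 0.49 (SE) for GFP state, with adjusted p of 1 in limma. The error here is the disagreement between the 2 lines and not a spread between replicate arrays, and FOSB and JUN were singled out after their values were seen.

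The second comparison set the Oct4 reporter against the Nestin reporter, which is the contrast the members were chosen on. In GFP (+) cells DUSP1 was 11.8 times lower in Oct4/GFP (+) cells (log2 difference -3.56), at percentile 0.503 of the 5962 probes measured on both. FOS was 3.02-fold lower and EGR1 at least 3.03-fold lower. FOSB, JUN and IER2 were lower by less than 2-fold (-0.94, -0.64 and -0.56), and ATF3 had a difference of 0.33, which turned to -0.91 with no normalization or with median centring. Of the 7 members above background on either array 3 were past 2-fold lower and 0 higher, beside 14.6% lower and 14.9% higher among 10830 probes. EGR1 could enter only as lower, and with measured differences alone the count is 2 of 6, on the contrast that chose the members. The members' median was -0.79, beside 0.09 over all probes measured.

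In GFP (−) cells DUSP1 was again the member with the largest difference, 5.03-fold lower in Oct4/GFP (−) cells (-2.33, percentile 0.389 of 4889 probes), though only a bound of -0.67 with a limit of 10 noise SD. ATF3 was at least 2.11-fold lower (a bound of -1.08), which was under 2-fold with a limit of 5 noise SD (-0.01), with centring on the probes that all arrays measured (-0.85) and with an offset of 50 (-0.69). FOSB and JUN had differences of -0.63 and -0.38, and IER2 had 0.70, which turned to -1.30 with no normalization and -0.13 with median centring. Of 6 members above background on either array 2 were past 2-fold lower and 0 higher, beside 9.16% lower and 18.2% higher among 10178 probes. The 2 reporter comparisons share no array with each other, but each shares an array with both comparisons of GFP state. In the additive fit the difference of Oct4 over Nestin reporter cells was -2.95 ± 0.49 (SE) on the log2 scale for DUSP1, -0.79 ± 0.45 for FOSB, -0.51 ± 0.45 for JUN and 0.07 ± 0.49 for IER2. No probe had an adjusted p under 0.05 for reporter in limma (0 of 3980, 0%), and 625 (15.7%) had an unadjusted p under 0.05.

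**Figure D3:**
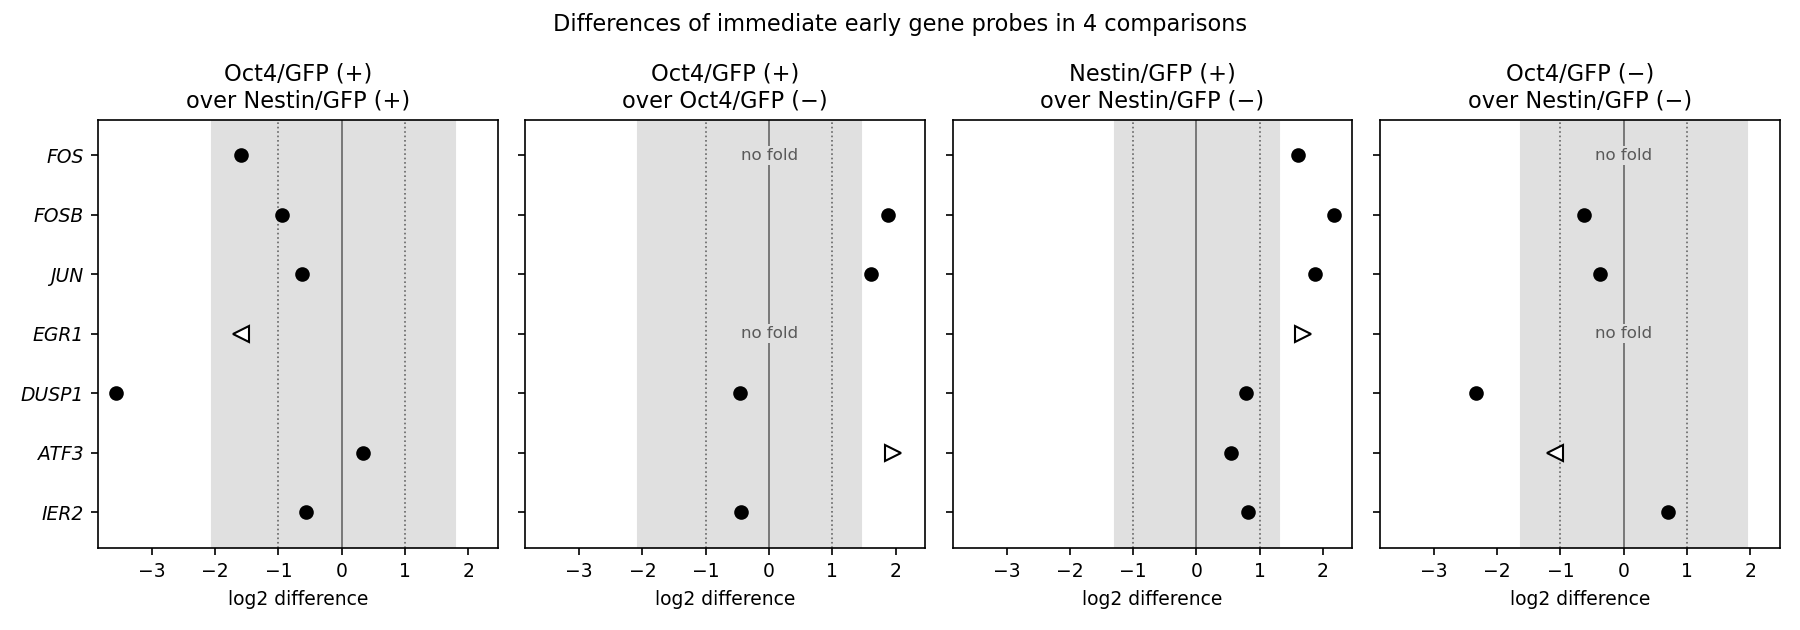
Log2 differences of the 7 probes in the 4 comparisons, with filled circles for measured differences, open triangles for bounds pointing away from 0, dotted lines at 2-fold, and grey bands for the central 95% of all probes measured in that comparison. DUSP1 lies left of the band in both reporter comparisons (-3.56 and -2.33), and FOSB and JUN lie right of it in both comparisons of GFP (+) with GFP (−).

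DUSP1 and IER2 had opposite directions in the 2 lines. DUSP1 was at -0.46 in the Oct4 line and 0.78 in the Nestin line, a difference of -1.23, and IER2 was at -0.45 and 0.81, a difference of -1.26. The Oct4 line value of DUSP1 rests on deposited intensities of 26 and 17, near the limits of 15.3 and 13.9 on those arrays. FOSB and JUN differed between lines by only -0.31 and -0.26. Without normalization the Oct4 line values of DUSP1 and IER2 were 0.61 and 0.65, above 0 as in the Nestin line. The median over all probes measured in the Oct4 line was then 1.03, so both genes stayed below it. In the deposited intensities a single scaling factor per array cancels from the ratio of a pair of genes, though quantile and loess scaling can change it. There DUSP1 relative to JUN was at -5.22 on the log2 scale in Oct4/GFP (+) against -2.96 in Oct4/GFP (−) cells, and at -2.35 in Nestin/GFP (+) against -1.33 in Nestin/GFP (−) cells. For IER2 relative to JUN, GFP (+) differed from GFP (−) cells by -2.22 on the log2 scale in the Oct4 line and by -0.97 in the Nestin line. Deposited JUN itself was at 2.88 in the Oct4 line and 2.24 in the Nestin line, and it had been singled out for its rise. DUSP1 was at 0.61 and 1.22 there and IER2 at 0.65 and 1.27. In those deposited intensities both genes thus rose less than JUN in both lines. With median centring of each array the Oct4 line values were -0.19 for DUSP1 and -0.16 for IER2. A ratio to JUN cannot give the direction of either gene.

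**Figure D4:**
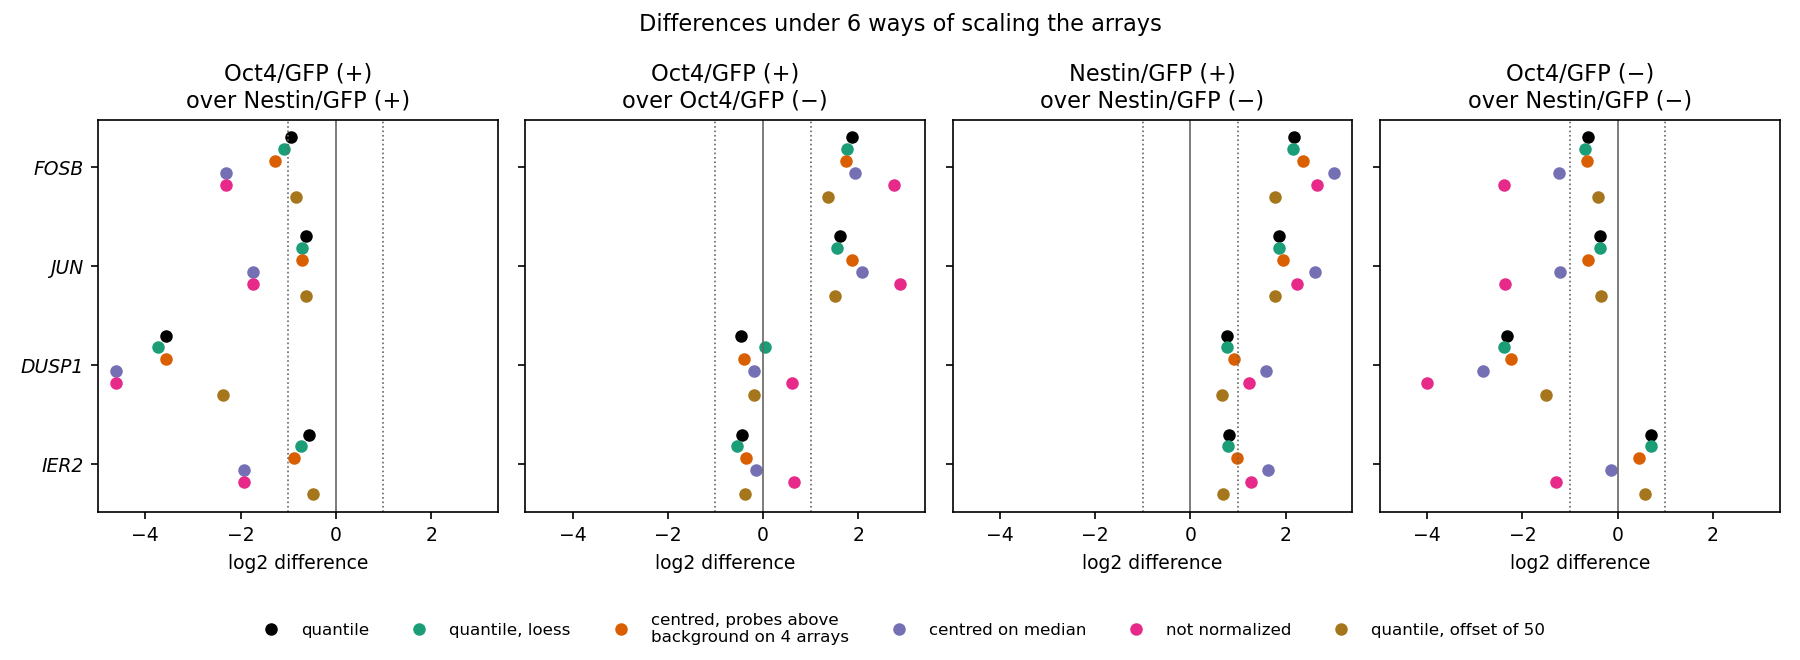
Log2 differences of the 4 probes measured on all arrays under 6 ways of scaling, in the 4 comparisons, with dotted lines at 2-fold. FOSB and JUN stay right of 1 in both comparisons of GFP (+) with GFP (−), DUSP1 stays left of -1 in both reporter comparisons, and DUSP1 and IER2 fall on either side of 0 in the Oct4 line.

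Scaling also set the size of the reporter differences. With no normalization the median over all probes moved to -0.93 between the GFP (+) arrays and to -1.67 between the GFP (−) arrays, and FOSB, at -2.31 and -2.39, and JUN, at -1.74 and -2.38, were then past 2-fold lower in Oct4 cells. The background shares moved as well. Between the GFP (+) arrays 2.92% of probes were then higher and 37.9% lower, the same as under median centring, and between the GFP (−) arrays 0.206% were higher and 61.7% lower. In the Oct4 line 37.8% were higher and 2.40% lower with no normalization, and in the Nestin line 12.2% higher and 5.13% lower. Median centring of each array gave 9.35% higher and 9.31% lower in the Oct4 line, 24.5% higher and 2.22% lower in the Nestin line, and 6.63% higher and 21.8% lower between the GFP (−) arrays. Centring on only those 3980 probes that all 4 arrays measured gave 20.9% higher and 12.7% lower between the GFP (+) arrays and 6.13% higher and 9.43% lower in the Nestin line. A loess fit against mean level gave 13.9% higher and 10.2% lower in the Oct4 line and 8.78% higher and 18.2% lower between the GFP (−) arrays. Through these shifts FOSB and JUN stayed between 1.36 and 3.02 in GFP (+) over GFP (−) cells of either line, over the 6 scalings plotted.

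The genes with a profile most like that of DUSP1 were taken by the root mean square distance of centred log2 profiles over the 4 arrays, among probes above background on all. They were SCP2, a lipid transfer protein (0.44), C1orf210 (0.45), LAPTM4A, a lysosomal membrane protein (0.48), CXorf26 (0.54) and CCT5, a chaperonin subunit (0.56). The members were farther away, with FOSB at 1.45, JUN at 1.47 and IER2 at 1.51. With 4 arrays such likeness is a description.

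Other genes of the same response were described by lists. Of 20 other early transcription factors, 17 have a named probe and 8 were above background. NR4A2, an orphan nuclear receptor induced early in many cells, had deposited intensities of 28 in Oct4/GFP (+), 179 in Nestin/GFP (+), 31 in Oct4/GFP (−) and 45 in Nestin/GFP (−) cells. Normalized, it stood at 107 in Nestin/GFP (+) and 84.3 in Oct4/GFP (−) cells, against 34.3 on each of the other arrays. Its log2 differences were -1.64 between the GFP (+) arrays, -1.30 in the Oct4 line, 1.64 in the Nestin line and 1.30 between the GFP (−) arrays. A probe of KLF6 had 59, 619, 59 and 344 in the order of the 4 populations, and 77.8, 357, 177 and 270 after normalization. On either scale both Nestin arrays were above both Oct4 arrays, as for DUSP1. A brighter probe of KLF6 had 920, 1145, 229 and 789, and 1230, 667, 731 and 635 after normalization. The AP-1 relatives JUND, FOSL1 and FOSL2 were above background, and JUND had 171, 690, 52 and 337. In the Nestin line JUND was at 0.58, FOSL1 at -0.02 and the brighter FOSL2 probe at 0.72, all under 2-fold, as were JUND (0.74), FOSL1 (0.28) and FOSL2 (-0.83) in the Oct4 line. Over the list 1 of 11 probes was past 2-fold higher and 0 lower in the Nestin line, where 6.55% and 5.75% of all probes were, and 0 of 10 higher and 2 lower in the Oct4 line, where 8.39% and 16% were. In GFP (−) cells 3 of 9 were past 2-fold higher in the Oct4 line, NR4A2, FOSL2 (1.14) and the Notch target HES1 (1.04), and 0 lower, beside 18.2% and 9.16% of all probes.

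Of 22 other early response genes 18 were above background. In the Nestin line 4 of 18 probes were past 2-fold higher in GFP (+) cells and 0 lower, beside 6.55% and 5.75% of all probes, and the list's median was 0.27 beside 0.02. They are ZFP36, whose protein destabilizes early gene mRNAs (1.06), the polyamine enzyme ODC1 (1.30), a probe of PHLDA1 (1.29) and the survival factor MCL1 (a bound of 1.92). A brighter probe of PHLDA1 was at -0.04. In the Oct4 line 5 of 18 were higher and 3 lower, beside 8.39% and 16%, with a median of -0.12 beside -0.02. RHOB, a small GTPase gene, was at 1.54 and PPP1R15A, which restarts translation after stress, at 1.07. PPP1R15A rests on an intensity of 15 in Oct4/GFP (−) cells, near that array's limit of 13.9. Another probe of RHOB was above background on no array. Between the GFP (+) arrays 4 of 19 were higher and 6 lower in Oct4/GFP (+) cells, beside 14.9% and 14.6%. Those lower included GADD45B, a stress gene of the p38 pathway (-2.11), NFKBIA, the inhibitor of NF-kB (-1.59), and CYR61, a secreted matrix protein (-1.19). GADD45B had intensities of 45, 440, 30 and 198 in the order of the 4 populations, and 58.8, 254, 80.8 and 153.5 after normalization. On either scale both Nestin arrays were above both Oct4 arrays, as for DUSP1. NFKBIA showed the same order of arrays, at a normalized 75, 225.75, 100 and 175.5. Those higher between the GFP (+) arrays included PLAUR, the urokinase receptor (1.27), PPP1R15A (1.20) and the brighter probe of PHLDA1 (1.08). CYR61 rests on an intensity of 19 in Oct4/GFP (+) cells, near that array's limit of 15.3. In GFP (−) cells 3 of 17 were higher and 3 lower in the Oct4 line, beside 18.2% and 9.16%, with ZFP36 at 2.18 and IER5 at -1.11. IER5 had an intensity of 17 in Oct4/GFP (−) cells, near the limit.

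ERK feedback genes report on the pathway that DUSP1 and its relatives restrain. Of 11 such genes 5 were above background: SPRY2, SPRY4, ETV5, DUSP4 and DUSP6. SPRY4 had intensities of 39 in Oct4/GFP (+), 103 in Nestin/GFP (+), 46 in Oct4/GFP (−) and 39 in Nestin/GFP (−) cells, with log2 differences of 1.16 in the Nestin line and -1.38 in the Oct4 line. DUSP6, which removes phosphate from ERK, was at -0.61 between the GFP (+) arrays, where DUSP1 was at -3.56. Between the GFP (−) arrays 3 of 5 probes were past 2-fold higher in Oct4/GFP (−) cells and 0 lower, beside 18.2% and 9.16% of all probes, with SPRY4 at 2.15 and ETV5 at 1.12. ETV5, an ETS factor induced by ERK, was at 1.38 between the GFP (+) arrays.

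Of 22 genes upstream of the early response, kinases and promoter-bound factors, 15 have a named probe and 10 were above background. In the Nestin line 0 of 8 and in the Oct4 line 0 of 6 were past 2-fold either way, beside the shares given above. Between the GFP (+) arrays MAPK8, the gene of JNK1, was at 1.66 and MAPK9, that of JNK2, at -1.10, while the kinase gene RPS6KA1 was at -1.06. In GFP (−) cells MAPK8 was at 1.61 and HRAS at -1.34. MAPK9, at 19 in Oct4/GFP (+) cells, and HRAS, at 18 in Oct4/GFP (−) cells, were near the limit of those arrays. SRF, the factor that binds the CArG box and is counted with the transcription factors above, had intensities of 178, 269, 86 and 273 in the order of the 4 populations and stayed under 2-fold in every comparison. MAX, the obligate partner of MYC, was bright at 632, 830, 260 and 780, and stayed under 2-fold with both probes. MYC itself was not above background, but it has a single named probe, so little mRNA and a poor probe cannot be told apart. MXI1, which competes with MYC for MAX, was at 1.18 in the Nestin line, -1.74 in the Oct4 line and 2.89 between the GFP (−) arrays. Among the heat shock and stress genes DDIT3, a factor of the unfolded protein response, was at -1.15 between the GFP (+) arrays and -1.56 in the Oct4 line. A probe of HSPH1, a heat shock cochaperone, was at 1.60 in the Oct4 line and -2.08 between the GFP (−) arrays. Both HSPH1 values rest on an intensity of 14 in Oct4/GFP (−) cells, barely over that array's limit of 13.9. The other HSPH1 probe was under the limit on both Oct4 arrays, and between the GFP (−) arrays it had a bound of -0.90. In the Nestin line 0 of 7 stress probes were past 2-fold either way, beside 6.55% higher and 5.75% lower of all probes. Between the GFP (+) arrays 0 of 7 were higher and 3 lower, beside 14.9% and 14.6%, and the calls of HSPH1 and HSPA8 there are bounds. In the Oct4 line 1 of 5 was higher and 2 lower, beside 8.39% and 16%. Between the GFP (−) arrays 1 of 6 was higher and 1 lower, beside 18.2% and 9.16%.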

How the data were processed

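Per the labels and the paper, RNA from 4 H1299 populations was labeled with Cy3 and hybridized to 1 Phalanx Human OneArray each. The authors deposited intensity values, linear whole numbers with background subtracted; the software, scaling and filters are not stated in those sources. Gene symbols came from the platform annotation (17397 of 30968 probes named). Members and gene lists were chosen with earlier results of these data known, and members were named whatever their values, with up to 4 genes named per list and comparison by size of difference and a few more chosen after their values were seen.

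Arrays were quantile normalized. The noise SD of an array was the root mean square of negative values (5.10 for Oct4/GFP (+), 7.57 for Nestin/GFP (+), 4.62 for Oct4/GFP (−), 6.76 for Nestin/GFP (−)), the limit was 3 noise SD, and lower values were raised to the array's floor (17.25, 18.50, 30.50 and 16.25) before log2. Bounds under 1 give no fold. Probes were called past 2-fold. The additive fit (limma 3.58.1, R 4.3.3) took the 3980 probes above background on all arrays, with Benjamini-Hochberg adjustment. Alternatives were other scalings, other limits (2, 5 or 10 noise SD), an offset of 50 without a limit, thresholds of 1.5-fold and 4-fold, genes for probes and measured differences only. Scripts were tested on simulated data. The rest used Python 3.11.15, numpy 2.4.6, pandas 2.3.3, statsmodels 0.14.6 and matplotlib 3.10.9.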

Additional observations from a re-analysis of the deposited data

Results flagged for a closer look

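DUSP1 had opposite directions in the 2 lines, with GFP (+) over GFP (−) at -0.46 in the Oct4 line and 0.78 in the Nestin line on the log2 scale, a difference of -1.23. IER2 did the same at -0.45 and 0.81, a difference of -1.26. With 1 array per population these differences were not tested. DUSP1 was near the limit on both Oct4 arrays, at intensities of 26 and 17. The Oct4 line value is above 0 without normalization for both genes (0.61 for DUSP1 and 0.65 for IER2), and with a loess on the mean level for DUSP1 (0.03). Without normalization both genes are still below the median over all probes measured in the Oct4 line (1.03).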

How the results depend on the processing

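No paired analysis was possible because all 4 arrays carry replicate number 1, so the groups share fewer than 2 numbers, and no replicate could be left out. No called difference of a member changed sign under any alternative. The number of members past 2-fold lower between the GFP (+) arrays, 3 in the main setting, was 6 with median centring of each array, 6 with no normalization, 1 at a limit of 10 noise SD, 1 with an offset of 50, 5 at 1.5-fold and 1 at 4-fold. It was 4 with centring on probes above background on all arrays, 4 with loess, 2 at 5 noise SD and 2 with measured differences only. The number higher in GFP (+) cells of the Oct4 line, 3 in the main setting, was 1 at 10 noise SD and 0 at 4-fold. It was 2 at 5 noise SD and 2 with measured differences only. In the Nestin line, 4 in the main setting, it was 7 with median centring, 2 at 10 noise SD, 2 with the offset and 1 at 4-fold. There it was 6 with no normalization, 6 at 1.5-fold, 3 at 5 noise SD and 3 with measured differences only. Between the GFP (−) arrays the number lower, 2 in the main setting, was 4 with median centring, 1 with centring on probes above background on all arrays, 6 with no normalization, 1 at 5 noise SD, 0 at 10 noise SD, 1 with the offset, 1 with measured differences only and 1 at 4-fold. At 1.5-fold the number lower was 3, and the number higher, 0 in the main setting, was 1. The causes of these shifts were not tested. For reporter, the contrast that chose the members, the additive fit's count of members with an adjusted p under 0.05 is no test of them. It was 0, while it was 4 with no normalization, where 1823 of 3980 probes passed, and 1 (DUSP1) with 12749 floored probes, where 179 passed. For GFP state 0 members passed under any of these fits.

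FOS, EGR1, ATF3 and DUSP1 were close to or under the limit on some arrays, and differences that use those arrays depend on it. For ATF3 this holds for Oct4/GFP (−) cells only, at 2.38 noise SD, and its other values were at 12.6 to 20.4 noise SD. For DUSP1 it holds for both Oct4 arrays, at 5.10 noise SD in Oct4/GFP (+) and 3.68 in Oct4/GFP (−) cells. At a limit of 5 noise SD DUSP1 has no fold in the Oct4 line. The FOS difference was -0.09 between the GFP (+) arrays and 0.47 in the Nestin line at 10 noise SD, the EGR1 bounds were -0.75 and 0.99 at 5 noise SD, and the ATF3 bound in the Oct4 line was 0.88 at 5 noise SD. Between the GFP (−) arrays the ATF3 bound was -0.01 at 5 noise SD. At 10 noise SD the FOSB bound in the Oct4 line was 0.98 and the DUSP1 bound between the GFP (−) arrays was -0.67. The number of arrays limits the precision of every value, and JUNB, MYC and IER3 give none.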

Other observations

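A probe of HSPA8, a constitutive heat shock chaperone, was listed at -3 in Oct4/GFP (+) cells, with 3067 in Nestin/GFP (+), 582 in Oct4/GFP (−) and 2710 in Nestin/GFP (−) cells, while a second HSPA8 probe had 311, 1391, 143 and 576 in the same order. Of the 15 probes past 2-fold higher in GFP (+) cells of both lines, CDC42, a small GTPase, had log2 differences of 1.56 in the Oct4 line and 1.25 in the Nestin line, and RRAGA, a GTPase of amino acid sensing, had 1.34 and 1.60.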
